A study of Mus musculus with 8 samples.

Results

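Atp1b1 and Atp1b3 encode beta subunits of the sodium pump, and they were followed in DC-restricted progenitors (CDPs) from the bone marrow of obese and control mice. They are 2 of 16119 genes in the deposited table of counts. The genes were chosen by a measured value, since Atp1b1 was higher in all HFD libraries, and Atp1b3 was taken with it as a subunit of the same pump. Their values between the diets are therefore given as a description, with no test. The mice were males, labelled C57BL/6 and given in the methods as C57BL/6J. They were fed a high fat diet (HFD, 60 kcal% fat, labelled as 16 weeks on the diet) or a chow diet (CF, 10 kcal% fat, titled low-fat). No allele or drug distinguished the groups. From each, 50000 CDPs per library were sorted as lineage-negative cells with intermediate c-kit, low Sca1, CD115 and Flt3, and total RNA was amplified and sequenced in 4 libraries per diet. The methods call the replicates independent without saying how many animals gave each, so the spread between libraries may be partly technical.

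The sodium pump (Na,K-ATPase) carries sodium out of the cell and potassium in, at the cost of ATP. The alpha subunit binds the ions and ATP, and the beta subunit is a glycoprotein with a single membrane span that an alpha subunit needs to fold and reach the cell surface. Small FXYD proteins associate with the pair and tune its kinetics. The gradient that the pump keeps drives uptake of amino acids, phosphate and vitamins, and sets cell volume and membrane potential. Atp1b1 is a beta subunit of many epithelia and other tissues, and Atp1b3, known as CD298, is a beta subunit of blood cells.

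Atp1b1 (ENSMUSG00000026576) spans chr1:164437109-164458355 of GRCm38 on the minus strand, with 4 annotated transcripts and 3081 bases of merged exons. Atp1b3 (ENSMUSG00000032412) spans chr9:96332655-96364442, also on the minus strand, with 3 transcripts and 2389 bases of exons. The sequences around their starts, from 250 bases before to 50 after, are shown because the 2 beta genes took different places in the comparison below. They come from RefSeq on GRCm38.p6, are on the minus strand and are printed 5′ to 3′. Atp1b1 starts in chr1:164458306-164458605, and the Atp1b3 window nearest the start of the annotated gene is chr9:96364382-96364681. Capitals mark matches on either strand to 4 short motifs, namely CCAAT, the GC box GGGCGG, the TATA-like TATANA, and GAGGAA, a core that PU.1 and Spi-B bind.
Atp1b1: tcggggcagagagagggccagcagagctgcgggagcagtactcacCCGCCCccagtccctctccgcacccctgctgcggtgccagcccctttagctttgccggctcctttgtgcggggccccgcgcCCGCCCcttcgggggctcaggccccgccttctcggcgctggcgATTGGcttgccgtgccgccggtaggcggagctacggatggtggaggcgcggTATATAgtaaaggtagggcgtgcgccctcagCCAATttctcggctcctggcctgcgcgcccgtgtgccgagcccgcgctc
Atp1b3: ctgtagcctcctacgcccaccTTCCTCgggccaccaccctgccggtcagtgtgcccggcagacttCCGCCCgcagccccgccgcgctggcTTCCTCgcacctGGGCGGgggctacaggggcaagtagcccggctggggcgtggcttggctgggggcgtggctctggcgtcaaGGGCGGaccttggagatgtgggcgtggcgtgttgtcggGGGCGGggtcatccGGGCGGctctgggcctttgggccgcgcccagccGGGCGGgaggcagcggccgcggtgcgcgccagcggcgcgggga
The Atp1b1 window held 2 matches to CCAAT, 2 to GGGCGG, 1 to TATANA and 0 to GAGGAA. The Atp1b3 window held 6 matches to GGGCGG and 2 to GAGGAA, and 0 to the others. Of 32817 windows of this length, 37.4% held CCAAT, 35.6% GGGCGG, 24.7% TATANA and 28.3% GAGGAA. Both windows were rich in CpG, with 31 sites in Atp1b1 and 34 in Atp1b3 against a median of 7. No match shared a base with another. These are matches of letters and not sites of binding.

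Total counts were 28203651 to 48409689 per library. Non-coding RNAs of up to 200 nt took 8.50% to 13.6% of the counts in HFD and 21.7% to 33.9% in CF, so normalised read counts (CPM, counts relative to library size) were scaled by TMM, which sets libraries level on the bulk of genes. The sort markers Csf1r (79.4 to 133 CPM), Flt3 (88.8 to 378) and Kit (34.2 to 53.6) were present in all libraries, and Ly6a (Sca1) was low at 1.37 to 3.25. HFD replicate 1 stood apart, with 20865 CPM summed over 15 neutrophil genes against 979 to 6688 in the other libraries. Between the diets, edgeR called 67 of 15837 genes at an adjusted p below 0.05, or 0.423%, and all of these were lower in HFD. The split depended on the setting. DESeq2 called 71 genes higher and 498 lower (3.58% of those tested), edgeR with library size alone 10 and 98 (0.682%), and edgeR without HFD replicate 1 called 34 and 166 (1.26%). With protein-coding genes alone edgeR called 0, and 0 to 2 without any 1 of 6 other libraries.

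Atp1b1 was found at 32.4, 62.4, 41.5 and 72.7 CPM in HFD replicates 1 to 4, and at 22.0, 24.1, 20.5 and 16.5 CPM in CF replicates 1 to 4. The diets did not overlap, and HFD replicates 2 and 4 were far above replicates 1 and 3. Mean levels of Atp1b1 were 52.2 ± 18.5 CPM for HFD against 20.8 ± 3.20 CPM for CF (SD, n = 4 each). The log2 fold change was 1.33 with a standard error (SE) of 0.25, or 2.52-fold. The lowest HFD library was 1.34 times the highest CF library after TMM, and 1.31 to 1.54 times under the other scalings tried. Every HFD library was above every CF library in 409 of 15837 genes, or 2.58%, and every one below in 3.58%, so the separation that chose Atp1b1 was shared by many genes. In size, 153 of the genes tested had a larger log2 fold change. The counts behind these values were 635 to 2996 per library, at which counting error is small beside the spread in HFD. In bulk RNA, more cells that carry a transcript and more of it per cell cannot be told apart.

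**Figure D1:**
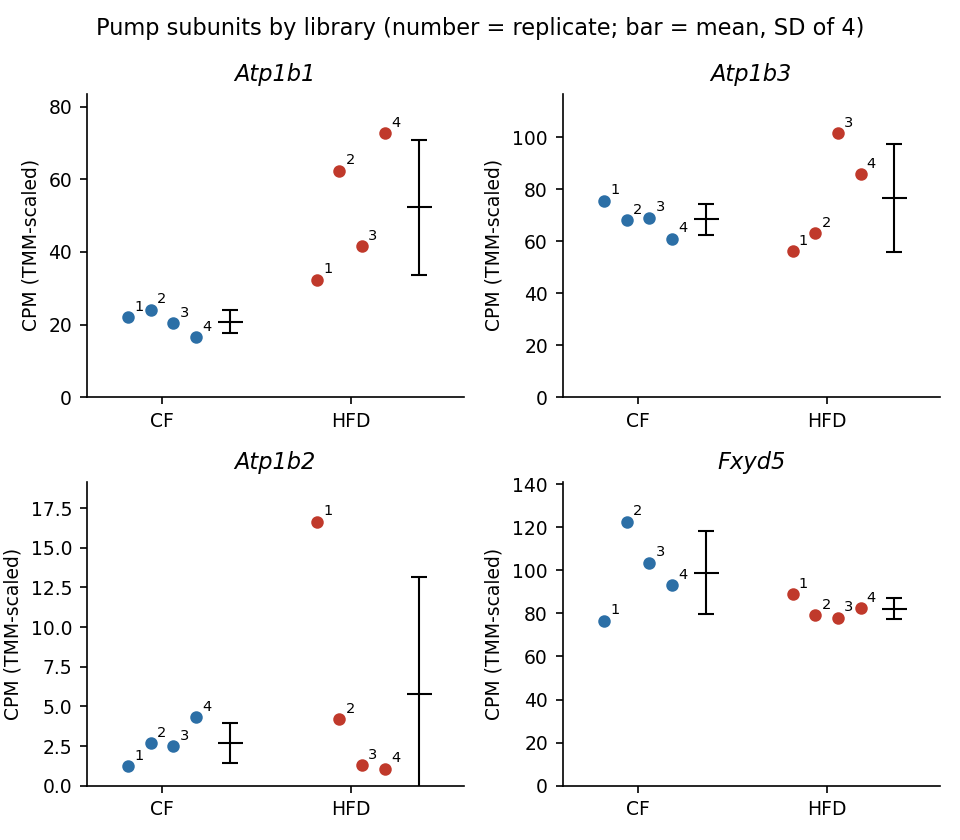
CPM after TMM scaling (linear axes from 0) of the 4 beta and FXYD genes in the table, with 1 point per library, labelled by replicate, in CF (blue) and HFD (red). The black bars are the mean and SD of 4 libraries, and that of Atp1b2 in HFD is cut off at 0. Atp1b1 lies at 16.5 to 24.1 CPM on CF and at 32.4 to 72.7 CPM on HFD, while the diets overlap in the other 3 genes.

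The last exons of Atp1b1 share 575 bases with Nme7, a nucleoside diphosphate kinase family gene on the plus strand that runs toward it. Whether the authors counted by strand is not stated in the sources used here, so reads of the shared bases could have gone to either gene. In HFD Nme7 was found at 5.23 to 9.44 CPM, and in CF at 5.34 to 8.24 CPM, below the lowest library of Atp1b1. Its log2 fold change was 0.08 (SE 0.22, adjusted p = 0.97 by edgeR). The nearest genes in the table were Blzf1, a Golgi protein gene, with 0.16 (adjusted p = 0.88), and the pseudogene Gm16550, with 0.35 (adjusted p = 0.88), both by edgeR. Beside Atp1b3, the values were 0.45 for Tfdp2, a dimer partner of E2F factors, and 0.29 for the lincRNA BC043934 (edgeR, adjusted p = 0.85 and 0.91). No gene beside either beta subunit was called, where edgeR called 0.423% of all genes. Blzf1 lay 129620 bases and Gm16550 690469 bases from Atp1b1, and Tfdp2 and BC043934 lay 9009 and 71341 bases from Atp1b3.

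Atp1b3 was found at 56.4, 63.1, 102 and 85.8 CPM in HFD replicates 1 to 4, and at 75.7, 68.1, 69.1 and 61.0 CPM in CF. HFD replicates 3 and 4 were above all CF libraries, and HFD replicate 1 was below them all. Mean levels of Atp1b3 were 76.7 ± 20.8 CPM for HFD against 68.5 ± 6.00 CPM for CF (SD, n = 4 each), and the log2 fold change of 0.16 was smaller than its SE of 0.19. It was -0.00092 without HFD replicate 3. Atp1b1 and Atp1b3 therefore ordered the HFD libraries differently, with replicate 2 next to the highest for Atp1b1 and next to the lowest for Atp1b3.

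Of 9 other beta and FXYD genes listed (the 2 remaining beta and 7 FXYD genes), 2 were in the table, and edgeR called 0 of them, with 0 at an unadjusted p below 0.05. DESeq2 and limma voom also called 0. Over all genes, edgeR called 0.423%, DESeq2 3.58% and limma voom 0.442%, and 8.56% had an unadjusted p below 0.05 by edgeR.

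Atp1b2, the beta subunit known as an adhesion molecule of glia, was rare, with 16.7, 4.18, 1.31 and 1.07 CPM in HFD and 1.21, 2.70, 2.49 and 4.31 in CF. A single library, HFD replicate 1, set its log2 fold change of 1.11 (SE 0.85, adjusted p = 0.83 by edgeR), which was -0.30 without it. With the neutrophil score as a covariate, an alternative added after seeing the data, the value was 0.90 (SE 0.24, adjusted p = 0.080 by edgeR), and with the plasmacytoid DC score 2.26 (SE 0.77, adjusted p = 0.23 by edgeR). The same library held the highest sums of neutrophil, erythroid (888 CPM over 12 genes, 115 to 207 elsewhere) and megakaryocyte genes (110.5 CPM over 8 genes, 3.59 to 27.9 elsewhere), and the part of the erythroid and megakaryocyte genes in the Atp1b2 value was not tested. Fxyd5, also called dysadherin, was the only FXYD gene in the table. It had 89.1, 79.2, 78.1 and 82.6 CPM in HFD and 76.6, 123, 104 and 93.0 in CF. Of its CF libraries, 3 were above all HFD libraries and CF replicate 1 was below them, and the log2 fold change was -0.27 (SE 0.14, adjusted p = 0.73 by edgeR).

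Levels of different genes were compared per kilobase (kb) of merged exon. In CF the order was Atp1b3 (28.7 ± 2.51 CPM per kb; SD, n = 4), Fxyd5 (23.6 ± 4.6), Atp1b1 (6.74 ± 1.04) and Atp1b2 (0.66 ± 0.31). In HFD the order was the same, with Atp1b3 at 32.1 ± 8.73, Fxyd5 at 19.6 ± 1.18, Atp1b1 at 17.0 ± 6.02 and Atp1b2 at 1.42 ± 1.80. Atp1b1 had 10.5, 20.2, 13.5 and 23.6 CPM per kb in HFD replicates 1 to 4, so that replicates 2 and 4 were above the HFD mean of Fxyd5. Per kb, Fxyd5 and Atp1b1 did not differ beyond their spread in HFD, and lay far apart in CF. This rests on the exon lengths used, 4192 bases for Fxyd5 and 3081 for Atp1b1. Without division by length the 2 genes did not overlap in HFD, with Fxyd5 at 78.1 to 89.1 CPM and Atp1b1 at 32.4 to 72.7. Among 11775 protein-coding genes tested, the level of Atp1b1 stood at percentile 77.6 in CF and 92.7 in HFD, and Atp1b3 at 96.4 and 96.7.

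Of the summed level of the 3 beta genes per kb, Atp1b1 made up 27.5%, 42.5%, 23.9% and 39.5% in HFD replicates 1 to 4 and 18.3%, 21.1%, 18.4% and 16.8% in CF. The shares did not overlap, which the choice of Atp1b1 goes far to fix, with means of 33.3% ± 9.01 and 18.6% ± 1.82 (SD, n = 4). Atp1b3 made up 63.2% ± 8.65 in HFD and 79.5% ± 1.67 in CF, and stayed the main beta transcript in all 8 libraries. The summed beta level was 50.5 ± 9.66 CPM per kb in HFD and 36.1 ± 3.01 in CF (SD, n = 4). It was 38.2, 47.7, 56.3 and 59.8 in HFD replicates 1 to 4 and 39.1, 37.0, 36.2 and 31.9 in CF, so that HFD replicate 1 lay below CF replicate 1 and the other 3 HFD libraries above all of CF. The level of Atp1b1 was 0.45, 0.77, 0.32 and 0.66 of that of Atp1b3 in HFD and 0.23, 0.27, 0.23 and 0.21 in CF.

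**Figure D2:**
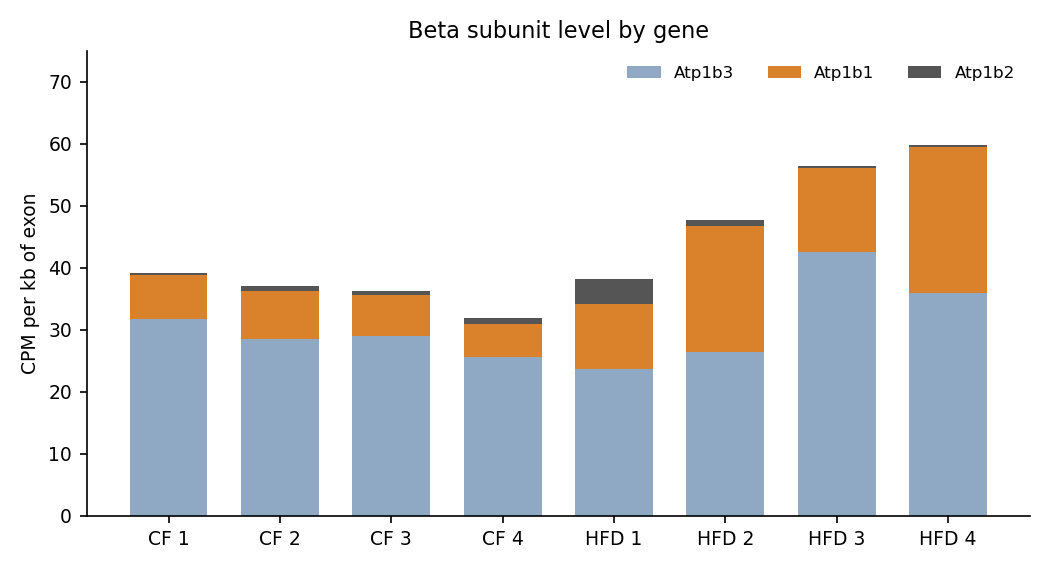
Level in CPM per kb of exon in each library (linear axis from 0). Bars stack the 3 beta subunit genes. Atp1b1 takes 16.8% to 21.1% of the bar in CF and 23.9% to 42.5% in HFD.

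The genes whose pattern was most like that of Atp1b1 were sought among 6659 protein-coding genes with a mean of at least 10 CPM, by Pearson's r of log2 CPM over the 8 libraries. These points share the diets, so r is given as a description. The 5 highest were Ptprf, a receptor tyrosine phosphatase (r = 0.99), Sqle, squalene epoxidase of sterol synthesis (0.98), Spib, the transcription factor Spi-B of plasmacytoid DCs (0.97), Dirc2, a lysosomal transporter (0.96), and Ubr7, a ubiquitin ligase (0.96). Ptprf had 16.5, 40.3, 24.6 and 44.3 CPM in HFD and 12.1, 14.2, 10.3 and 9.41 in CF, and Spib had 27.1, 52.7, 31.2 and 60.5 against 12.9, 23.2, 16.4 and 12.3. As in Atp1b1, HFD replicates 2 and 4 were highest, and all HFD libraries were above all CF libraries in Ptprf, Spib, Sqle and Ubr7, against 2.58% of all genes. These genes were picked for their likeness to a gene chosen for its difference between the diets, so their own differences are no independent evidence. By edgeR 0 of the 5 were called, and 5 had an unadjusted p below 0.05, against 8.56% of all genes (adjusted p = 0.097 for Ptprf, 0.11 for Spib and Sqle, 0.34 for Dirc2 and 0.55 for Ubr7). DESeq2 called Ptprf, Spib and Sqle (adjusted p = 0.00055, 0.00084 and 0.0045; 3.58% of all genes). Without HFD replicate 1, edgeR called the same 3 genes (adjusted p = 0.018, 0.038 and 0.027, with 1.26% of all genes called), and with library size alone Ptprf and Spib (adjusted p = 0.035 and 0.043, with 0.682% called). The 3 genes were not called by limma voom (adjusted p = 0.14, 0.11 and 0.13), nor by edgeR on protein-coding genes alone (0.69 for each).

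With the mean of each diet taken out, r reads only the differences between libraries of a diet. Atp1b1 spread more widely in HFD (log2 CPM 5.02 to 6.19) than in CF (4.05 to 4.59), so the HFD libraries weigh more in this r. The 5 highest for Atp1b1 were Sec24d, a coat protein of transport from the ER, Anxa6, an annexin, Ercc6l, a mitotic helicase, Dirc2 and Zdhhc13, a palmitoyltransferase (r = 0.99 for each). Of these, Sec24d was called without HFD replicate 1, at 0.97 on the log2 scale (adjusted p = 0.046 by edgeR), against 0.77 with all libraries (adjusted p = 0.36). Of the 6659 genes, 99 passed 0.9 in this way and 40 with the diets left in. For Atp1b3 the genes with the highest r were Mbd3, a subunit of the NuRD complex (0.98), Lck, a Src family kinase (0.97), and Cst7, cystatin F (0.95). Mbd3 had 17.4, 18.7, 27.4 and 22.2 CPM in HFD and 21.0, 20.1, 20.0 and 18.7 in CF. Within diets they were Mbd3 (0.98), Saraf, a regulator of calcium entry (0.97), and Lck (0.97). Dirc2 was the gene common to both sets of Atp1b1, and the sets of Atp1b1 and Atp1b3 had no gene in common.

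**Figure D3:**
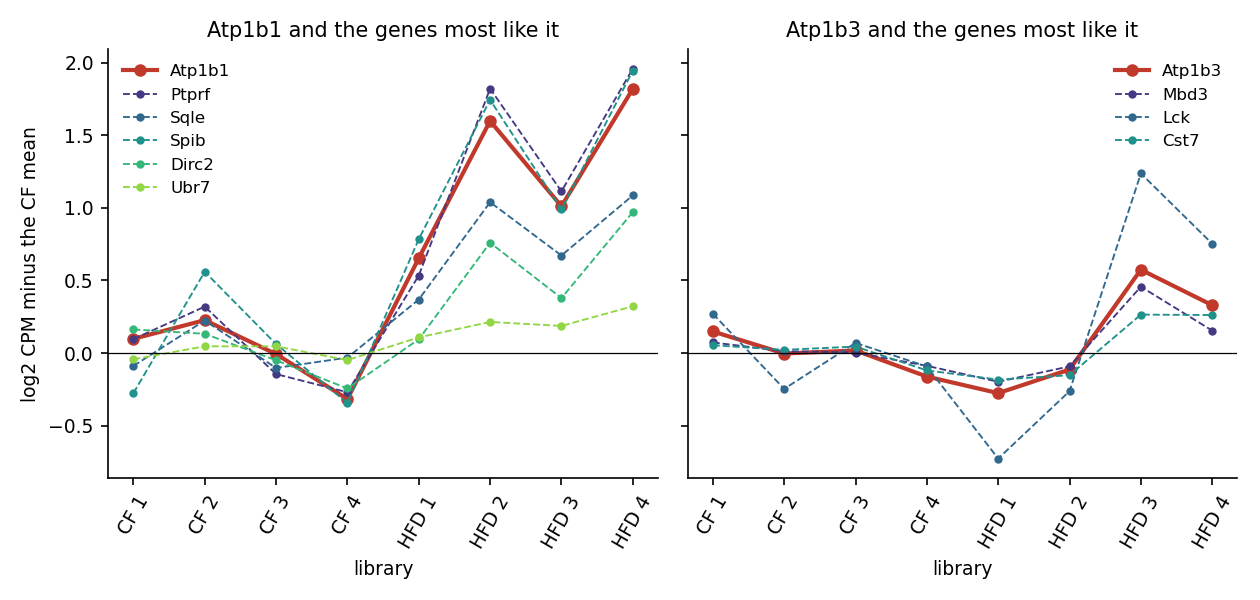
Log2 CPM minus the CF mean in each of the 8 libraries for Atp1b1 with its 5 most similar genes (left) and Atp1b3 with its 3 (right). Lines join libraries only to show each pattern, since replicates have no order. Atp1b1, Ptprf and Spib peak in HFD replicates 2 and 4, and Atp1b3, Mbd3 and Lck in HFD replicates 3 and 4.

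Since Spib marks plasmacytoid DCs, the whole marker list of these cells was read beside Atp1b1. Of 10 genes listed, 9 were in the table, and none of them was at 0 in any library. All 9 had a positive log2 fold change (median 0.84 against 0.055 over all genes tested), 6 with an unadjusted p below 0.05 (8.56% over all genes), 3 with every HFD library above CF (2.58% over all genes) and 0 called by edgeR (0.423% over all genes). DESeq2 called 4 of the 9 (3.58% over all genes), edgeR with library size alone 1 (0.682%), and limma voom 0 (0.442%). Without HFD replicate 1, edgeR called 5 (1.26% over all genes). Each of these was higher in HFD. The median without that library was 1.08. The 3 were Spib, Ccr9 and Pacsin1, the last 2 named after their values were seen, at 1.40, 1.56 and 2.06 on the log2 scale (adjusted p = 0.11, 0.14 and 0.097 by edgeR). Spib is counted in these numbers although it had been picked for its likeness to Atp1b1, so they are no independent evidence. The summed level of all 9 genes was 350, 813, 563 and 732 CPM in HFD and 445, 500, 436 and 457 in CF. HFD replicate 1 had the lowest sum of all 8 libraries. Most of the sum came from Runx2 (299 CPM in HFD and 250 in CF) and Tcf4 (122 and 119). In HFD replicate 1 both Atp1b1 (32.4 CPM) and Spib (27.1 CPM) were above every CF library, which the way both were picked goes far to fix. The markers Siglech, Bst2, Tcf4, Cox6a2, Lair1 and Runx2 overlapped between the diets. With the mean log2 CPM of the list, Spib included, as a covariate, an alternative added after seeing the data, the log2 fold change of Atp1b1 was 0.55 (SE 0.19). The list differed with the diet itself, so its part and that of the diet cannot be told apart.

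The neutrophil sum was 20865, 3644, 1305 and 979 CPM in HFD and 1992, 6688, 6223 and 6076 in CF. Atp1b3 was lowest in the HFD library with the highest sum, and both HFD libraries with sums below all of CF had the highest Atp1b3. With the neutrophil score as a covariate, also added after seeing the data, Atp1b1 had 1.18 (SE 0.20) and Atp1b3 0.034 (SE 0.12). Without HFD replicate 1, Atp1b1 had 1.5 and Atp1b3 0.29. Other lists were as follows. With HFD given first and CF second, conventional DC genes summed to 441 to 1183 and 762 to 943 CPM over 10 genes, monocyte and macrophage genes to 172 to 483 and 370 to 538 over 10, and granulocyte progenitor genes to 223 to 1291 and 338 to 751 over 8. B cell genes summed to 469 to 1308 and 323 to 557 over 10 and mast cell and basophil genes to 11.3 to 72.1 and 21.5 to 52.7 over 6. T and NK cell genes summed to 12.6 to 33.2 and 13.5 to 23.3 over 7, and stromal and endothelial genes to 59.8 to 114 and 75.5 to 92.4 over 7. A list on oxidative and osmotic stress summed to 184 to 268 and 209 to 241 CPM over 10 genes. In single libraries 1 to 3 genes of the monocyte, T and NK cell, megakaryocyte, stromal and stress lists were at 0, and none of the others. By gene, several lists leaned one way. Positive log2 fold changes were found in 9 of 10 B cell genes (median 0.76), 12 of 12 erythroid (1.14), 7 of 7 megakaryocyte (1.70), 6 of 7 stromal and endothelial (1.04) and 14 of 15 neutrophil genes (0.37), and negative ones in 8 of 10 conventional DC genes (-0.33). Without HFD replicate 1 the medians were 0.53, 0.04, 0.38, 0.32, -1.41 and -0.17, so the erythroid, megakaryocyte and stromal medians rested on that library and the neutrophil median changed sign, as it did with limma voom (-0.63). Granulocyte progenitor genes turned from 6 of 8 positive (median 0.26) to 8 of 8 negative (-0.88) without that library. Mast cell and basophil genes turned from 5 of 6 positive (0.16) to 6 of 6 negative (-0.25). In the 6 lists given before these, edgeR called 0 genes, against 0.423% of all genes. At an unadjusted p below 0.05 were 6 of 10 B cell genes, 1 erythroid and 1 stromal gene, all higher, and 1 conventional DC gene, lower, against 8.56% of all genes. Every HFD library was above CF in 2 of 10 B cell genes and 1 stromal gene, against 2.58% of all genes, and below in 1 of 10 conventional DC genes, against 3.58%. DESeq2 called 1 B cell and 1 stromal gene higher, where it called 3.58% of all genes. Without HFD replicate 1, edgeR called 1 conventional DC gene higher, where it called 1.26% of all genes. All of these sums overlapped between the diets, and, apart from the neutrophil list, their part in the values of both beta subunits was not tested. The pattern of Atp1b3 was not particular to the neutrophil sum, with which r was -0.87 on the log2 scale over the 8 libraries. It was -0.85 with the stress list, -0.84 with monocyte and macrophage, -0.79 with granulocyte progenitor, -0.72 with megakaryocyte and -0.69 with mast cell and basophil genes. It was positive with stromal and endothelial (0.73), sort marker (0.72), conventional DC (0.69) and plasmacytoid DC genes (0.39).

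To see whether genes that work with the pump differed too, 6 lists of 162 genes were read from the same fit. Of these, 79 were in the table, 77 were tested and 0 were called by edgeR, with 2 higher and 1 lower at an unadjusted p below 0.05. Over all genes the shares were 0.423% called and 8.56% at an unadjusted p below 0.05. DESeq2, which called 3.58% of all genes, and limma voom, which called 0.442%, called 0 of the lists as well. Of the 77, 44 had a positive and 33 a negative log2 fold change, with a median of 0.034 against 0.055 over all genes tested. Slc12a4 was the 1 gene with every HFD library above CF, and Slc38a2, named after its values were seen, the 1 gene with every HFD library below, against 2.58% and 3.58% of all genes.

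Among pump partners and regulators, 6 of 13 genes were tested, with a median log2 fold change of 0.0089. Sgk1, a kinase that promotes sodium transport, had 16.4, 7.27, 4.64 and 4.71 CPM in HFD and 12.2, 15.5, 14.9 and 10.5 in CF. HFD replicate 1 was the highest of all libraries, and the other 3 HFD libraries were below all of CF. The difference was -0.69 on the log2 scale (SE 0.40, adjusted p = 0.75 by edgeR), and without HFD replicate 1 it was called, at -1.26 (SE 0.22, adjusted p = 0.034 by edgeR). In that setting 1.26% of all genes were called, and Sgk1 was the 1 gene called in the 6 lists. Stk39, the SPAK kinase of cation-chloride cotransporters, and Nedd4l, a ubiquitin ligase of sodium channels, had 0.63 and -0.08 (edgeR, adjusted p = 0.91 and 0.96), and both changed sign without HFD replicate 1, to -0.69 and 0.05.

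Of 33 other P-type ATPases and their CDC50 subunits, 20 were tested, with log2 fold changes of -0.26 to 0.41 and a median of 0.029. The lowest p values belonged to Atp10d, a flippase gene annotated as a polymorphic pseudogene (-0.26), Atp2a3, the SERCA3 calcium pump (0.30), and Atp13a2, a lysosomal polyamine pump (0.32), with adjusted p of 0.63, 0.79 and 0.80 by edgeR. Atp4a of the gastric proton pump was at 0.34 to 1.80 CPM, with 0.94 (edgeR, adjusted p = 0.71). Of 51 sodium-coupled transporters and exchangers, 28 were tested, with a median of 0.044. Slc5a6, a multivitamin transporter, had 0.77, Slc23a2, which carries vitamin C, 0.24, and Slc4a8, a bicarbonate exchanger, -0.77 (edgeR, adjusted p = 0.57, 0.73 and 0.73).

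Of 17 sodium channel genes, 2 were tested, Scn4b at 0.39 and Scnn1a at 0.11 (edgeR, adjusted p = 0.86 and 0.99). Scnn1a had 9.95 CPM in HFD replicate 1 and 0.89 to 4.76 in the other libraries, and its log2 fold change was -1.26 without that library. Of 45 genes of potassium and chloride exit, 20 were tested, with a median of -0.0068. Slc12a4, the cotransporter KCC1, had 6.00, 5.41, 4.67 and 5.17 CPM in HFD and 4.21, 3.94, 2.74 and 4.13 in CF, with 0.50 (SE 0.18, adjusted p = 0.43 by edgeR). Kcnq3, a voltage-gated potassium channel, had -1.28 at 0.24 to 1.13 CPM, and Kcnj10, an inward rectifier, 1.82 at 0 to 2.25 CPM (edgeR, adjusted p = 0.51 and 0.73). These rest on 10 to 41 and 0 to 70 counts per library. Without HFD replicate 1, Kcnj10 had 1.01 and Kcnq3 -1.55.

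**Figure D4:**
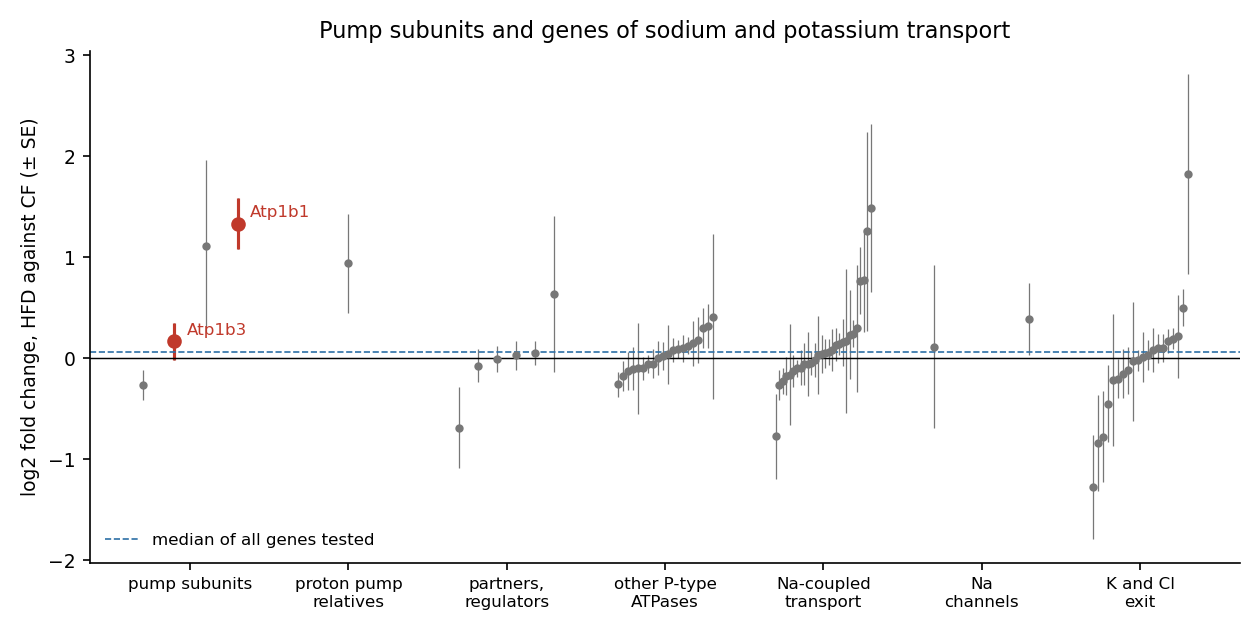
Log2 fold change between HFD and CF with its standard error for each tested gene of the beta and FXYD genes and of the 6 lists, sorted within each list. Atp1b1 (1.33) and Atp1b3 (0.16) are marked in red, the dashed line is the median of all genes tested (0.055), and most genes lie near it.

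The log2 fold change of Atp1b1 was then computed under every alternative. Its positive sign follows from the choice of the gene and is no sign of stability. In size it ran over 19 settings from 0.55 with the plasmacytoid DC score to 1.56 with library size alone, a setting that shifts the median gene from 0.055 to 0.25. Without single libraries it ranged from 1.09 (without HFD replicate 4) to 1.5 (without HFD replicate 1). Atp1b3 ranged from -0.08 with the plasmacytoid DC score to 0.38 with library size alone.

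**Figure D5:**
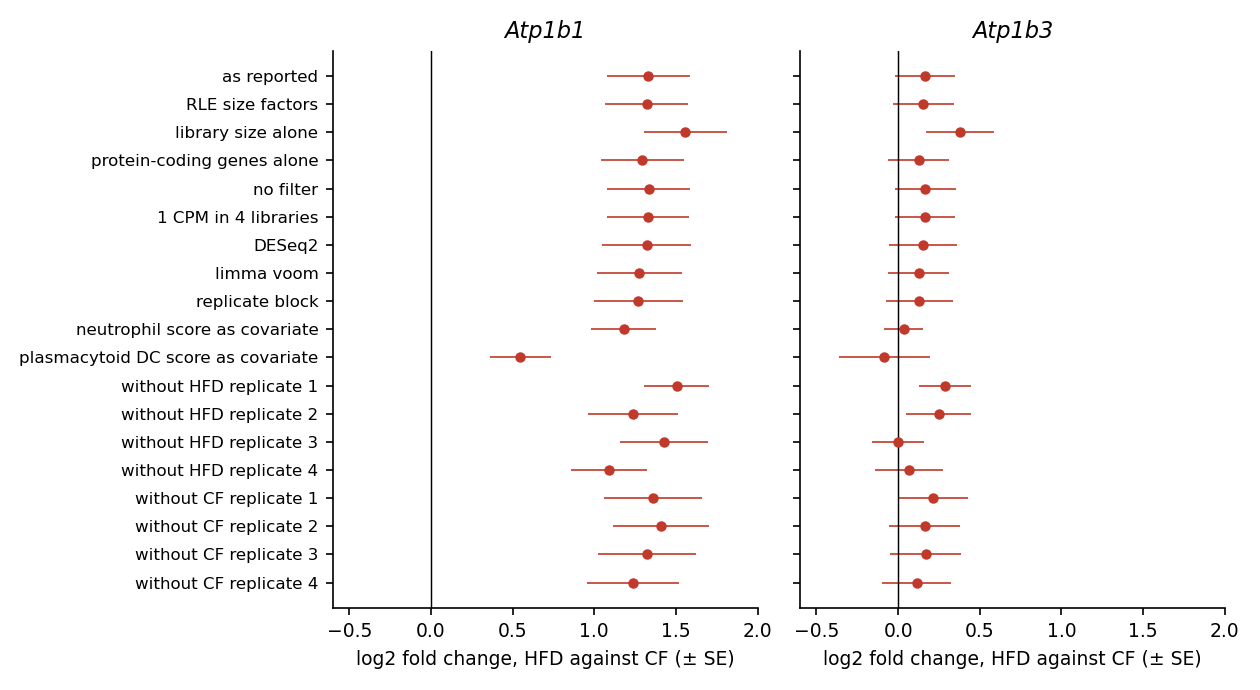
Log2 fold change between HFD and CF (horizontal axis, points, with bars of 1 standard error) of Atp1b1 and Atp1b3 in each of the 19 settings. Atp1b1, whose sign was fixed by its choice, runs from 0.55 to 1.56, and Atp1b3 from -0.08 to 0.38.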

How the data were processed

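RNA of sorted CDPs was measured in 8 libraries, 4 per diet. The authors deposited raw counts per gene, not normalized. Per their methods and processing notes, reads were aligned with HISAT2 to GRCm38, uniquely mapped pairs kept, and genes counted with StringTie on GENCODE annotation. Versions, strandedness and the filter that left no gene with a highest count under 29 are not given in the sources used here. Amplification and rRNA depletion can shift the share of counts between RNA classes.

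Columns were matched to samples by the sample number in their names. Of 16119 identifiers, 16067 were found in GENCODE vM21, used for names, positions and lengths. edgeR 4.0.16 in R 4.3.3 kept 15837 genes (filterByExpr), scaled them by TMM and fitted a robust quasi-likelihood model with diet as the only term, with Benjamini-Hochberg adjustment over all genes tested. Standard errors are the log2 fold change divided by the root of F. Log2 CPM used a prior count of 2. Alternatives were RLE, library size alone, protein-coding genes alone, 2 other filters, DESeq2 1.42.0, limma voom 3.58.1, a replicate block, each library left out, and, added after seeing the data, 2 marker scores as covariates. Tests were tried on simulated data. Named were the beta and FXYD genes, neighbours, the 3 lowest p of each transport list and the genes most like each member. Members and lists were chosen with earlier results of these data known. Certain genes are not reported here. Figures were drawn with matplotlib 3.10.9.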

Additional observations from a re-analysis of the deposited data

Results flagged for a closer look

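Among 114 sets of 4 values, each from the libraries of 1 diet, 8 held a value set far off from the remaining 3, where about 1 set in 20 would by chance. HFD replicate 1 had the highest share of Atp1b2 in the beta subunit level, 10.7%, with 2.15% the next. It also had the highest HFD values of Scnn1a (9.95 CPM, next 1.98), of the neutrophil list (20865 CPM summed, next 3644) and of the erythroid list (888 CPM, next 199). Its stromal and endothelial list was the lowest of HFD, at 59.8 CPM (next 110). CF replicate 1 was the lowest of CF in Kcnq3, at 0.26 CPM (next 0.99), and in the neutrophil list, at 1992 CPM (next 6076). HFD replicate 4 was the highest of HFD in Gm16550, at 1.04 CPM (next 0.79). No value of Atp1b1 or Atp1b3 themselves stood apart in this way.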

How the results depend on the processing

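Atp1b1 had a log2 fold change of 1.33, and of 1.18 to 1.56 under the other scalings, filters, tools, the replicate block and the neutrophil score, but 0.55 with the plasmacytoid DC score. Leaving out each library gave 1.09 to 1.5. The number of genes called between the diets, 67 by edgeR, was 108 with library size alone (10 higher), 569 with DESeq2 (71 higher), 663 with the neutrophil score (104 higher), and 0 with the plasmacytoid DC score, with protein-coding genes alone and with the replicate block. At an unadjusted p below 0.05 those with 0 had 1198, 285 and 236 genes higher and 1041, 252 and 675 lower. Leaving out each library gave 0 to 200 called, with 200 without HFD replicate 1, 154 without CF replicate 4 and 0 to 2 without any other. The cause was not tested. Genes of the transport lists called were 0, except 2 of 77 with the neutrophil score (Atp2a3 and the glycine transporter Slc6a9), where 4.19% of all genes were called. With each library left out they were 0 to 1, the 1 being Sgk1 without HFD replicate 1, where 1.26% of all genes were called. Atp1b2 and Fxyd5 were called in no setting. The share of Atp1b1 in the beta level differed by 14.7 percentage points, by 11.7 to 17.9 with each library left out and by 15.8 without division by length.

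Of 35 other named genes, 10 changed sign in some setting, where the marker scores were read only for Atp1b2 and Fxyd5. Stk39 had -0.24 with limma voom and -0.13 with the block, and Scnn1a -0.41 and -0.66. Nedd4l had 0.14 with library size alone. With each library left out, the ranges were -0.30 to 1.44 for Atp1b2, -0.69 to 0.96 for Stk39, -0.16 to 0.054 for Nedd4l, -1.26 to 0.43 for Scnn1a, -0.039 to 0.19 for Mbd3, -0.050 to 0.14 for Cst7, -0.16 to 0.21 for Nme7, -0.014 to 0.23 for Blzf1, -0.072 to 0.26 for Anxa6 and -0.047 to 0.20 for Ercc6l.

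The replicate numbers do not pair the libraries: the deviations of equally numbered libraries correlated with r of -0.44, -0.08, -0.23 and -0.18 across genes, and no HFD library correlated best with its own number. With the replicate block Atp1b1 had 1.27 and Atp1b3 0.13. Counts of 10 to 41 for Kcnq3 and 0 to 70 for Kcnj10 limit what can be said of them.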
